A study of Mus musculus with 6 samples.

Results

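The 10 genes described here make up the core of transforming growth factor beta (TGF-beta) signalling: the ligands Tgfb1, Tgfb2 and Tgfb3, the receptors Tgfbr1, Tgfbr2 and Tgfbr3, the Smads Smad2, Smad3 and Smad7, and the latent binding protein Ltbp1. They were chosen by symbol, as every probe set that the platform annotation gives to 1 of these symbols alone, which came to 25 of 45037 probe sets and 10 of 18193 genes. The RNA came from cerebellar endothelial cells of postnatal day 16 mice, pulled out with dynabeads that carry an antibody to PECAM, an endothelial surface protein. One group was Fz4-/- (called Fz4-null below), lacking the Norrin and Wnt receptor Frizzled4, and the other was wild type, both on a C57Bl6/129 mixed background and of mixed gender. Each genotype had 3 preparations with 1 Affymetrix 3' array each, so 6 arrays limit the precision of every value. The labels give no promoter or Cre for the Fz4 allele and do not say whether a preparation came from 1 animal or a pool. The p-values therefore set each genotype difference against the spread between these preparations, not against a known spread between animals.

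TGF-beta is secreted in a latent form, held in the matrix by latent binding proteins and freed by integrins and proteases. The free ligand binds the type II receptor Tgfbr2, which recruits and activates the type I receptor kinase Tgfbr1, and this kinase phosphorylates Smad2 and Smad3, which enter the nucleus with Smad4. Smad7 blocks the receptor and is itself induced by the pathway, and Tgfbr3 (betaglycan) presents ligand, above all TGF-beta 2. In the brain the pathway is known for its part in the stability of growing vessels, where cells around the vessel activate ligand and endothelial cells respond.

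None of the member probe sets passed the test between genotypes. With limma and Benjamini-Hochberg adjustment over all 45037 probe sets, 0 of 25 had an adjusted p under 0.05, where 0.0111% of all probe sets did. At an unadjusted p under 0.05, 3 of 25 probe sets passed (2 higher and 1 lower in the null arrays), against 4.46% of all probe sets. An unmoderated statistic gave 5 of 25. Its share over all probe sets was not counted, so those 5 cannot be set against the 4.46%. The 3 null arrays lay wholly above or wholly below the 3 wild-type arrays at 8 of 25 probe sets (32.0%), where 9.27% of all probe sets had no overlap. Of these, 4 lay higher (4.08% of all probe sets) and 4 lower (5.18%). Counted as genes, each read from its brightest probe set, 3 of 10 had no overlap against 9.54% of all genes, and the median difference was -0.013 against 0.0077 over all genes. Probe sets of a gene read the same RNA, so the 25 are not independent. The members were also chosen with earlier results of these data known, so these shares are not an independent comparison with all probe sets. All values are log2 RMA expression, and all differences are Fz4-null minus wild type on that scale.

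The probe sets without overlap belonged to Tgfb3, Tgfb2 and Ltbp1 on the lower side and to Tgfb1, Tgfbr2 and Smad2 on the higher side. The differences were modest, none reaching log2 1 in size: they ran from -0.91 to 0.88 over the 25 probe sets. For 13 of the 25 the 95% interval lay within log2 1 on either side of 0.

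**Figure D1:**
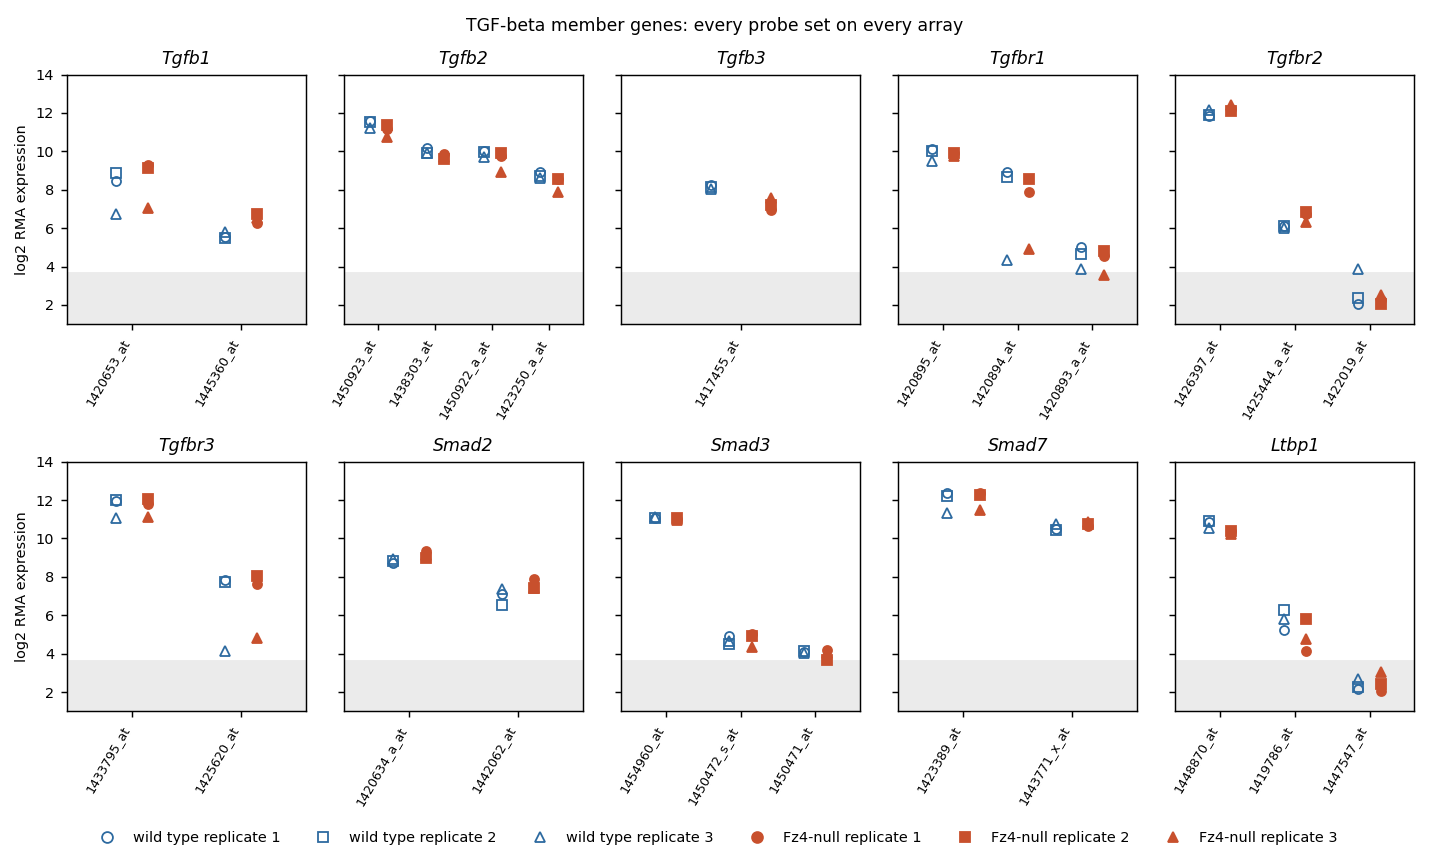
Log2 RMA expression (y axis) of every member probe set (x axis, brightest first) on each of the 6 arrays, wild type as open blue and Fz4-null as filled orange symbols, with the symbol shape giving the replicate number. The grey band ends at 3.64, the highest of the arrays' lower quartiles. The triangles (arrays numbered 3) lie lowest in both genotypes for the brightest probe sets of Tgfb1, Tgfb2, Tgfbr1, Tgfbr3, Smad7 and Ltbp1.

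The arrays and preparations bear on these values in a few ways. Array medians lay between 5.52 and 5.58 and lower quartiles between 3.46 and 3.64. Fzd4, the targeted gene, read 3.69 ± 0.56 in the null and 10.63 ± 0.37 in the wild-type arrays (SD, n = 3) at its brightest probe set, and it fell by 6.94 (limma adjusted p = 0.00965; 0.127 with the replicate number as a block, which ends the call). Leaving out either null replicate 2 or 3 or wild-type replicate 1 or 2 also ended it, with differences from -7.15 to -6.85. The dimmer Fzd4 probe sets were also lower on all null arrays but did not pass. Their differences were -4.95 at 1419301_at (limma adjusted p = 0.0769) and -1.74 at 1449416_at (limma adjusted p = 0.850). The mean of 15 pan-endothelial markers lay between 11.71 and 11.82 on the null and between 11.48 and 11.58 on the wild-type arrays, far above the median. It was thus higher on every null array, and the median difference of these markers was 0.075. The part of endothelial signal in the member and pathway values was not tested. Null replicate 1 held less signal from other cells: its mean over 13 microglia and macrophage markers was 5.12 against 7.53 to 7.77 on the other 5 arrays, over 12 fibroblast and meningeal markers 7.44 against 9.54 to 10.36, over 12 astrocyte markers 7.36 against 8.61 to 9.38, and over 14 pericyte and smooth muscle markers 8.91 against 9.94 to 10.44. Choroid plexus markers (10 measured) lay between 4.37 and 4.77 on the null and between 5.18 and 7.42 on the wild-type arrays, the highest being wild-type replicate 3. Red cell and platelet markers (7 measured) lay between 5.34 and 5.71 on the null and between 5.96 and 6.20 on the wild-type arrays. Several of these cell types express TGF-beta ligands and receptors, and the part of other cells in the member values was not tested beyond the values without single arrays given below. In such bulk RNA, fewer cells of a type and less RNA per cell cannot be told apart.

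The 5' regions of Tgfb1 and Tgfb2 are shown because these ligands differ in the direction of their readings below, and because Frizzled4 signals through beta-catenin to Tcf/Lef factors, whose recognition letters can be searched there. Each runs from 250 bases before to 50 after a start site of the gene, on the gene's own strand, from RefSeq with build GRCm38.p6. Tgfb1 lies at chr7:25686752-25687051 on the + strand and Tgfb2 at chr1:186705940-186706239 on the - strand. The Tgfb1 start is the outermost of the gene's span, while the Tgfb2 start lies 3708 bases inside the span RefSeq gives that gene, whose outermost start is not covered. Capitals mark a Tcf/Lef match (CTTTGNN with A or T at each N) or a Smad-type match (CAGACA), each searched on both strands.
Tgfb1: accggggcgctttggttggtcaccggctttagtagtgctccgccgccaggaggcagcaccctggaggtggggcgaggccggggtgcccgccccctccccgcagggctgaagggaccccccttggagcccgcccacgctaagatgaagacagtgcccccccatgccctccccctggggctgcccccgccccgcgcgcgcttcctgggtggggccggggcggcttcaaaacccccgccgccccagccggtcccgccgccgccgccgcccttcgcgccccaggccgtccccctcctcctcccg
Tgfb2: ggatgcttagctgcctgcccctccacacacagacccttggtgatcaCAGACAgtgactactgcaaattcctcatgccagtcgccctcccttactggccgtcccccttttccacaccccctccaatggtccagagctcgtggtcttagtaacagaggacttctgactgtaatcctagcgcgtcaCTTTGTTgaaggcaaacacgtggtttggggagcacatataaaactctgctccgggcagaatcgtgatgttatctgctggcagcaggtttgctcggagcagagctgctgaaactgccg
The Tgfb2 region held 1 Tcf/Lef match, which begins 67 bases before that internal start, and 1 CAGACA match, which begins 204 bases before it, and the Tgfb1 region held neither. Of all 32851 regions of this length in the table, 16.9% held such a Tcf/Lef match and 21.0% a CAGACA match, so neither is rare. GGGCGG, the core of the GC box that Sp1 binds, was found 6 times in the Tgfb1 region and 0 times in that of Tgfb2, with at least 1 match in 35.7% of all regions. G and C made up 77.0% of the Tgfb1 and 54.3% of the Tgfb2 region. Among the 8 regions of 6 member genes in the table, Tgfbr1 had the only other Tcf/Lef match, in 1 of its 2 regions, and Ltbp1 had the only match to the cyclic AMP response element TGACGTCA (1.79% of all regions). The Smad palindrome GTCTAGAC was found in 0 of the 8 (0.213% of all regions). A match is a description of letters and no evidence of binding.

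Among the ligands, Tgfb3 read lower and Tgfb2 slightly lower in the null arrays, while Tgfb1 read higher, and none passed over all probe sets. Tgfb3 encodes the TGF-beta 3 ligand and is read by 1 probe set (1417455_at). It read 8.25, 8.16 and 8.04 on wild-type replicates 1 to 3 and 6.95, 7.22 and 7.54 on null replicates 1 to 3. All null arrays lay below all wild-type arrays. The means were 8.15 ± 0.10 and 7.24 ± 0.30 (SD, n = 3), a 1.88-fold lower level in the null arrays. The log2 difference was -0.91 (SE 0.21, 95% interval -1.41 to -0.42, limma adjusted p = 0.755, unadjusted p = 0.00344). By replicate number the gap was -1.30, -0.94 and -0.49. Without any 1 array it lay between -1.07 (without null replicate 3) and -0.77 (without null replicate 1). Null replicate 1, with the lowest Tgfb3 value, also had the lowest microglia, fibroblast, astrocyte and pericyte markers. Choroid plexus markers and red cell and platelet markers were lower on all null arrays. The part of all these cells in the Tgfb3 values was not tested otherwise.

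Tgfb2, the ligand that depends most on betaglycan, is read by 4 probe sets, and each was lower in the null arrays, with differences of -0.43 to -0.29. The brightest (1450923_at) read 11.57, 11.54 and 11.19 in wild type and 11.17, 11.36 and 10.75 in the null arrays. The groups overlapped, wild-type replicate 3 lying below null replicate 2 (log2 difference -0.34, SE 0.23, limma adjusted p = 1.00). At 1438303_at the groups did not overlap, with 10.19, 9.92 and 9.90 in wild type against 9.86, 9.59 and 9.69 (-0.29, SE 0.18). At 1423250_a_at they did not overlap either, with 8.94, 8.73 and 8.61 against 8.56, 8.54 and 7.87 (-0.43, SE 0.24). The remaining probe set, 1450922_a_at, overlapped (-0.37, SE 0.29). Each of the 4 intervals included 0, and at every replicate number each of the 4 read lower in the null array, with gaps between -0.81 and -0.05. All 4 kept their direction when any 1 array was left out, between -0.56 and -0.06.

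Tgfb1, a ligand made by endothelial, microglial and blood cells, had 2 probe sets that both read higher in the null arrays but behaved differently across arrays. The brighter (1420653_at) read 8.47, 8.90 and 6.76 on wild-type replicates 1 to 3 and 9.31, 9.11 and 7.07 on null replicates 1 to 3. The arrays numbered 3 were low in both genotypes, so the groups overlapped. The difference of 0.45 had a wide 95% interval, -1.35 to 2.26 (limma adjusted p = 1.00), and it turned to -0.19 without wild-type replicate 3. By replicate number the null array was higher each time, by 0.83, 0.21 and 0.32. The dimmer (1445360_at) read 5.56, 5.50 and 5.82 in wild type and 6.25, 6.72 and 6.55 in the null arrays. Here all null arrays lay above all wild-type arrays and the arrays numbered 3 did not stand apart. The means of 5.63 ± 0.17 and 6.50 ± 0.24 (SD, n = 3) differed 1.84-fold, a log2 difference of 0.88 (SE 0.20, 95% interval 0.40 to 1.35, limma adjusted p = 0.755). It stayed between 0.77 and 1.00 without any 1 array. Microglia and macrophage markers were lowest on null replicate 1, without which the difference was 1.00, and red cell and platelet markers were lower on all null arrays; their part in the Tgfb1 values was not tested otherwise.

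**Figure D2:**
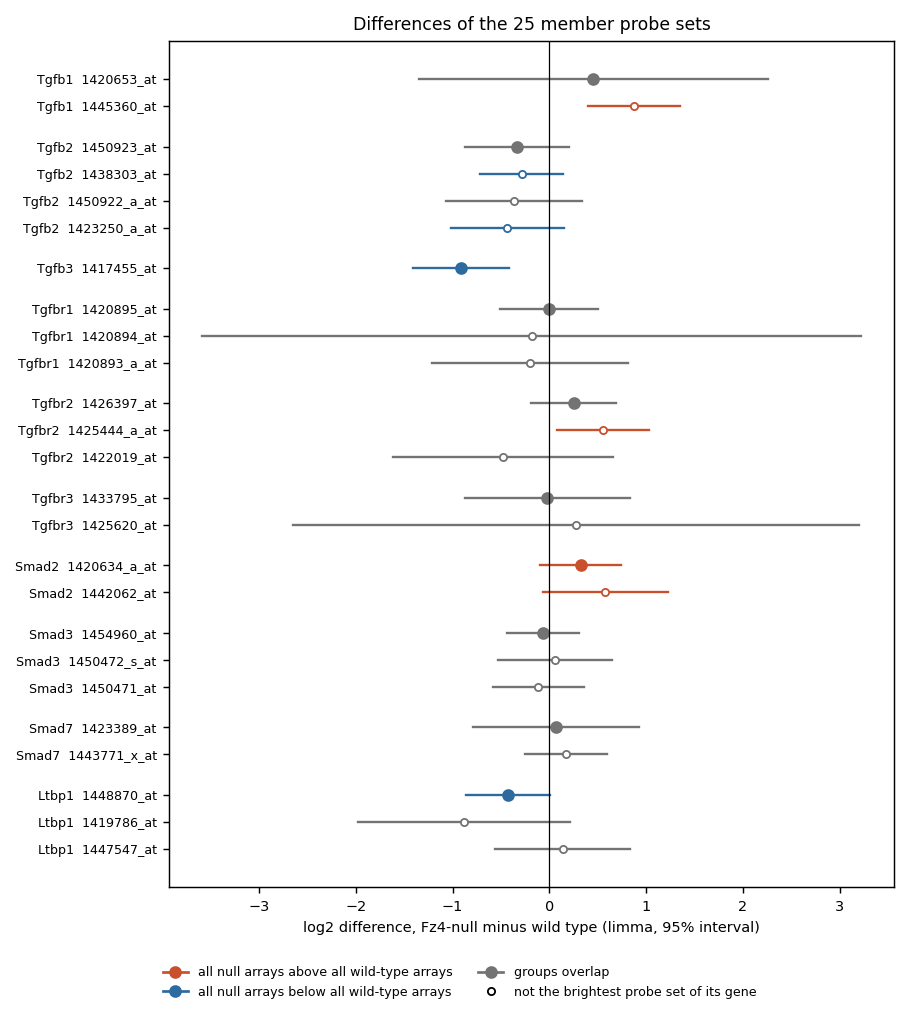
Log2 difference (x axis, Fz4-null minus wild type) of each of the 25 member probe sets with its 95% limma interval, by gene and with the brightest probe set filled; colour shows the 4 probe sets whose null arrays all lay higher, the 4 whose null arrays all lay lower, and the 17 that overlapped. The intervals of Tgfb3 and of the dimmer Tgfb1 and middle Tgfbr2 probe sets exclude 0 before adjustment, and those of 1420894_at and 1425620_at are the widest.

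Of the receptors, Tgfbr2 read slightly higher in the null arrays, and Tgfbr1 and Tgfbr3 showed no difference at their brightest probe sets. Tgfbr2, the type II receptor that binds ligand first, read 11.86, 11.89 and 12.16 in wild type and 12.20, 12.08 and 12.39 in the null arrays at 1426397_at. Wild-type replicate 3 fell within the null range, and the difference was 0.25 (SE 0.18, 95% interval -0.19 to 0.69, limma adjusted p = 1.00). By replicate number the null array was higher by 0.34, 0.19 and 0.24. The pan-endothelial marker mean was also higher on all null arrays, and its part in this value was not tested. At the dimmer 1425444_a_at the groups did not overlap, with 6.09, 6.14 and 6.02 against 6.76, 6.84 and 6.32 (0.56, SE 0.20, limma adjusted p = 1.00, unadjusted p = 0.0277). The third Tgfbr2 probe set, 1422019_at, lay below the lower quartiles on every array other than wild-type replicate 3 and gives no usable level (-0.48, SE 0.48; 0.085 without that array).

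Tgfbr1, the type I receptor kinase also called ALK5, read 10.11, 9.999 and 9.52 in wild type and 9.93, 9.93 and 9.75 in the null arrays at 1420895_at. The groups overlapped, and the difference of -0.0050 had a 95% interval of -0.51 to 0.50. A change larger than about 1.43-fold lies outside that interval. A second probe set, 1420894_at, read 8.90 and 8.64 on wild-type replicates 1 and 2 but 4.36 on replicate 3, and 7.90 and 8.57 on null replicates 1 and 2 but 4.89 on replicate 3. It therefore separates the arrays numbered 3 from the others and says little of genotype (-0.18, 95% interval -3.59 to 3.23). Without both arrays numbered 3, a setting chosen after seeing the data, it read -0.54 and 1420895_at -0.12. The third, 1420893_a_at, was dim (means 4.50 and 4.30). Leaving out 1 array turned the sign of all 3: 1420895_at ran from -0.18 to 0.11, and 1420894_at from -1.65 to 0.94.

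Tgfbr3, betaglycan, a co-receptor without kinase activity, read 11.95, 12.02 and 11.07 in wild type and 11.81, 12.07 and 11.10 in the null arrays at 1433795_at. The replicate number, not the genotype, separated these values: the difference was -0.020 (SE 0.36, 95% interval -0.87 to 0.83), and by number it was -0.14, 0.048 and 0.029. The dimmer 1425620_at showed the same split more strongly, reading 7.82, 7.73 and 4.11 against 7.65, 8.04 and 4.79 (0.27, 95% interval -2.65 to 3.20). Depending on the array left out, the brighter ran from -0.33 to 0.26 and the dimmer from -0.95 to 1.29.

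Among the Smads, Smad2 read higher in the null arrays at both of its probe sets, and Smad3 and Smad7 did not differ beyond their spread. Smad2, a receptor-activated Smad, read 8.74, 8.85 and 8.94 in wild type and 9.32, 9.01 and 9.16 in the null arrays at 1420634_a_at. The groups did not overlap, null replicate 2 and wild-type replicate 3 lying closest (difference 0.32, SE 0.17, 95% interval -0.09 to 0.74, limma adjusted p = 1.00). At 1442062_at it read 7.09, 6.53 and 7.38 against 7.87, 7.44 and 7.43, again without overlap (0.58, SE 0.27, limma adjusted p = 1.00). Without any 1 array the differences stayed between 0.24 and 0.40 and between 0.34 and 0.77. Smad3, its close relative, read 11.05, 11.08 and 11.11 against 10.99, 11.08 and 10.98 at 1454960_at, with little spread in either group. Its difference was -0.06 (SE 0.16), with a 95% interval of -0.44 to 0.31. The other Smad3 probe sets were dim, with means of 3.96 to 4.76, and read 0.06 and -0.11. Smad7, the inhibitory Smad that TGF-beta signalling induces, read 12.36, 12.20 and 11.33 against 12.36, 12.26 and 11.47 at 1423389_at, with a difference of 0.07 (95% interval -0.79 to 0.93; -0.25 without wild-type replicate 3). Its replicates numbered 3 were low in both genotypes, which widens that interval. At 1443771_x_at, where they were not, Smad7 read 10.50, 10.46 and 10.77 against 10.64, 10.77 and 10.83 (0.17, 95% interval -0.25 to 0.59).

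Ltbp1, which anchors latent TGF-beta in the matrix, read lower in the null arrays at its usable probe sets. The brightest, 1448870_at, read 10.87, 10.89 and 10.53 in wild type and 10.40, 10.37 and 10.24 in the null arrays, without overlap. The means of 10.76 ± 0.20 and 10.34 ± 0.08 (SD, n = 3) differed 1.34-fold (log2 difference -0.43, SE 0.18, 95% interval -0.86 to 0.01, limma adjusted p = 1.00). It stayed between -0.54 and -0.36 without any 1 array. At 1419786_at it read 5.25, 6.27 and 5.81 against 4.15, 5.80 and 4.74, with overlap and -0.88 (SE 0.46). That value was -0.51 without null replicate 1 and -1.34 without null replicate 2. By replicate number that gap was -1.10, -0.47 and -1.07. The third, 1447547_at, lay below the lower quartiles on all arrays. Fibroblast and pericyte markers were lowest on null replicate 1, which had the highest Ltbp1 value of the null arrays at 1448870_at and the lowest at 1419786_at.

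Several member probe sets split the arrays by replicate number rather than by genotype. At 3 of 25 the array numbered 3 lay more than log2 1 below the mean of arrays 1 and 2 in both genotypes, against 2.02% of all probe sets, and at 0 of 25 it lay as far above (2.34%). These were 1420894_at of Tgfbr1 (-4.42 in wild type and -3.35 in null), 1425620_at of Tgfbr3 (-3.66 and -3.05) and 1420653_at of Tgfb1 (-1.93 and -2.13). For each gene another probe set on the same arrays moved less or not at all: 1420895_at of Tgfbr1 read -0.54 and -0.18, 1433795_at of Tgfbr3 read -0.91 and -0.84, and 1445360_at of Tgfb1 read 0.29 and 0.07. What sets the arrays numbered 3 apart is not given in the labels. Without both, 0 of 25 member probe sets passed in limma and 5 had an unadjusted p under 0.05, against 7.95% of all probe sets. Tgfb3 then read -1.12, Tgfb1 0.52 and 0.95, and Ltbp1 -0.50 at its brightest probe set. With the replicate number as a block in limma, 0 of 25 passed, and 5 had an unadjusted p under 0.05 (8.70% of all probe sets): those of Tgfb3, 1445360_at of Tgfb1, 1425444_a_at of Tgfbr2 and the brighter 2 of Ltbp1. Their block adjusted p ran from 0.454 to 0.556.

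**Figure D3:**
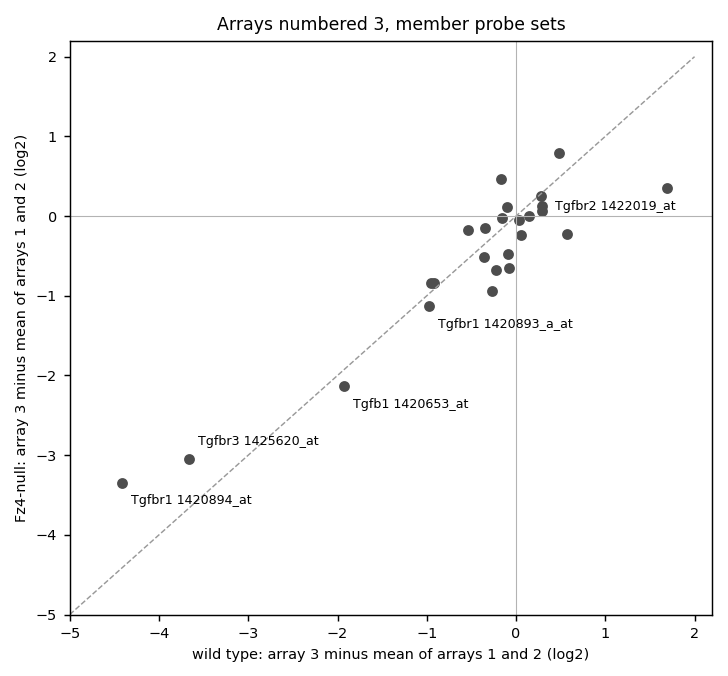
For each of the 25 member probe sets, the log2 value on the array numbered 3 minus the mean of arrays 1 and 2, in wild type (x axis) and in Fz4-null (y axis), with the dashed line marking equal shifts. The 3 probe sets at the lower left, of Tgfbr1, Tgfbr3 and Tgfb1, lie between -4.42 and -1.93 in both genotypes, while the others lie between -1.13 and 1.69.

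Other genes of the pathway were read from 6 lists, 81 genes in all. The lists, like the members, were chosen with earlier results of these data known. None passed in limma over all probe sets, 8 had an unadjusted p under 0.05 (5 higher and 3 lower), where 4.60% of all genes did, and 11 had no overlap (9 higher and 2 lower) where 9.54% did. The largest readings were in Tgfbi and Cd109. Tgfbi, a secreted matrix protein named for its induction by TGF-beta, read 8.14, 7.73 and 9.09 in wild type and 9.97, 10.58 and 10.87 in the null arrays at 1448123_s_at. All null arrays lay above all wild-type arrays, and the means of 8.32 ± 0.69 and 10.47 ± 0.46 (SD, n = 3) differed 4.44-fold (log2 difference 2.15, SE 0.40, limma adjusted p = 0.533). All 4 Tgfbi probe sets had no overlap, with differences of 2.13 to 2.45. Macrophages and fibroblasts also make Tgfbi, and their markers were lowest on null replicate 1. Without that array the difference was 2.40, and the part of these cells was not tested otherwise. Cd109, a membrane-anchored TGF-beta co-receptor that inhibits signalling, read 7.71, 7.47 and 8.40 in wild type and 10.26, 9.85 and 9.59 in the null arrays, again with no overlap. It was 4.10-fold higher (log2 difference 2.04, SE 0.30, limma adjusted p = 0.325), and its dimmer probe set read 2.19.

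In the target gene list 0 of 24 measured genes passed, 3 had no overlap and all 3 read higher, and the list's median was 0.09. Beside Tgfbi these were Snai1, a transcriptional repressor of epithelial genes (1.39, SE 0.47, limma adjusted p = 1.00), and Ccn2, a matricellular protein (0.32), which was named after its value was seen. Receptors and co-receptors had 4 of 12 without overlap, all higher, and a median of 0.14. Beside Cd109 these were Acvrl1, the endothelial type I receptor ALK1, with 0.70 (SE 0.25) at its brighter probe set and 0.28 at the other, and, named after their values were seen, the activin receptor Acvr2a (0.16) and the co-receptor Nrp1 (0.13). Of the latency and activation genes 2 of 14 had no overlap: Ltbp3, another latent binding protein, read 0.44 (SE 0.19), and Itgb6, an integrin subunit that frees TGF-beta, read -0.86 (SE 0.19) from a dim 5.23 in wild type. The list's median was 0.01.

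Antagonists that bind ligands outside the cell had a median of -0.65 over 9 genes, with 1 higher and 1 lower without overlap and 0 past the threshold. That median turned to 0.14 without null replicate 1, the array with the least fibroblast signal, so its direction rests on that array; Dcn and Lum are also in the fibroblast list. Fmod, a matrix proteoglycan named after its value was seen, read -1.74 (SE 0.61, limma adjusted p = 1.00) with overlap, and -1.27 without that array. Fst, an activin-binding protein, read 1.19 (SE 0.37) at 1434458_at and -0.20 at its other probe set, and Fstl3, a relative, read -0.65 (SE 0.21). The other Smads had 0 of 5 without overlap at their brightest probe sets and a median of 0.04. Smad1, which acts in BMP signalling, read 0.24 and the dim Smad9 -0.21. At its dimmer probe sets Smad1 read 0.27 with overlap (1459843_s_at) and 0.56 (SE 0.22) without overlap (1416081_at). Smad partners and regulators had 0 of 18 without overlap and a median of 0.01. Of these, the TGF-beta target and inhibitor Pmepa1 read -0.34 at its brightest probe set, -0.36 and -0.46 at the others, and the Smad anchor Zfyve9 read 0.31. The brightest Pmepa1 value was -0.09 without null replicate 2, and that of Zfyve9 was 0.12 without wild-type replicate 2.

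**Figure D4:**
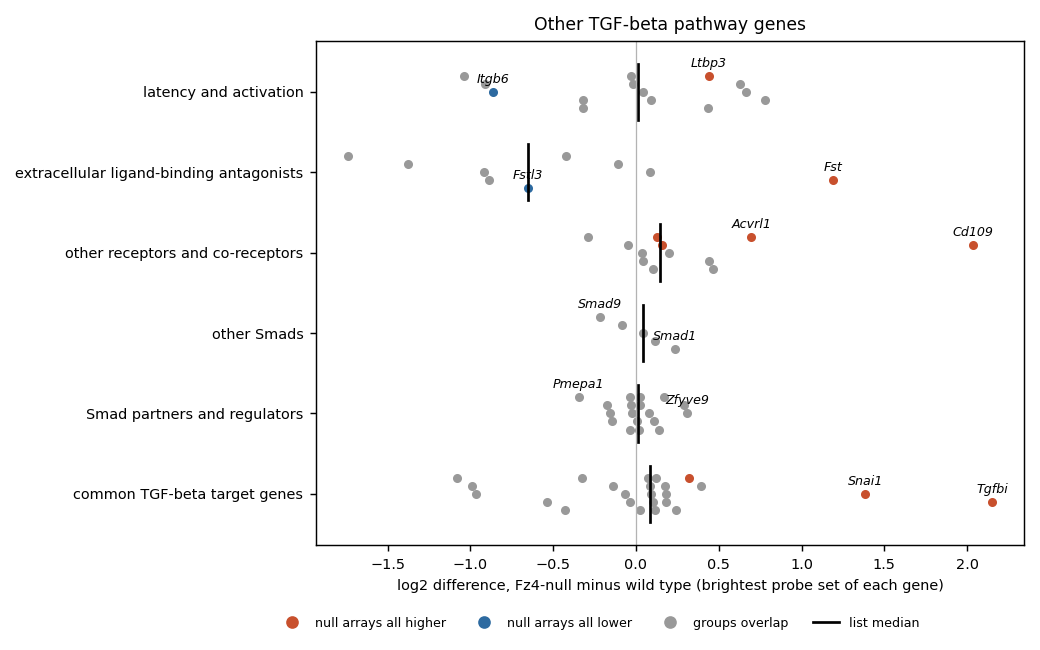
Log2 difference (x axis, Fz4-null minus wild type) of each measured gene in 6 lists of other TGF-beta pathway genes, from its brightest probe set, with the list median as a bar and colour where the groups did not overlap. Tgfbi (2.15) and Cd109 (2.04) lie farthest to the right, and the 18 Smad partners and regulators lie between -0.34 and 0.31.

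Across the 6 arrays, the genes whose pattern was most like each member's were found by Pearson r among 10925 other genes above the median level. With 6 arrays and so many genes, values of r near 1 are reached by many pairs, so these are descriptions only. Tgfb3 was followed most closely by Selenop (r = 0.978), a secreted selenium carrier, and Gnaz (0.975), a G protein subunit. For Tgfb2 they were Stxbp5l (0.989) and the transcription factor Foxf1 (0.988), both also lower in the null arrays, at -0.48 and -0.78. Like Tgfb2, both also read lowest on the array numbered 3 in each genotype, Foxf1 at 10.38 in wild type and 9.48 in null. For Tgfbr2 they were Arhgap23 (0.993) and the formin Fhod1 (0.992), higher by 0.48 and 0.54. Like Tgfbr2, both also read highest on the array numbered 3 in each genotype. There Tgfbr2 lay above the mean of arrays 1 and 2 by 0.28 in wild type and 0.26 in null. For Smad2 they were Ces2g (0.994) and Zfp521 (0.987), and for Ltbp1 Clint1 (0.991) and Clcn5 (0.989). Clint1 and Clcn5, like Ltbp1, also read lowest on the array numbered 3 in each genotype. The other members whose arrays numbered 3 read lowest also had partners with the same dip. These were Stk11 (0.996) and Pwp2 (0.996) for Tgfb1, and Ppp1r15b (0.998) and Rcbtb1 (0.997) for Tgfbr3. For Tgfbr1 they were Mfsd14b (0.998) and Sgk1 (0.996), and for Smad7 Castor2 (0.999) and Znrf1 (0.999). Smad3 was nearest to Tenm4 (0.976) and Fancb (0.972).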

How the data were processed

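Per the submitters' processing notes, RMA gave the deposited log2 values, a method that narrows differences near background; its version is not stated here. Of 45101 rows, 64 controls were left out. The platform annotation names 1 gene for 34945 probe sets, several for 932 and none for 9160; 34741 matched RefSeq (GRCm38.p6) by identifier. Depth does not apply to arrays.

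The test was limma 3.58.1 (R 4.3.3; lmFit, eBayes, two-sided, Benjamini-Hochberg over 45037 probe sets at 0.05). In 10 simulated sets of 45037 probe sets, each with 200 changed and with independent noise, it recovered 2.99% of log2 1 shifts, 75.8% of log2 2 and 98.6% of log2 4. The real arrays had correlated deviations (given below) and an unknown number of changed probe sets. These shares therefore do not give the power of the test on them. With 3 against 3 arrays the smallest exact permutation p is 0.1, so none was run.

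Labels number the replicates 1 to 3. Across genotypes, array deviations from the group means correlated at 0.244, 0.303 and 0.574 for like numbers, over the minimum of 0.1. The unlike pair of null replicate 2 and wild-type replicate 1 reached 0.262, above the 0.244 of the replicates numbered 1. This criterion therefore does not tell numbers 1 and 2 apart, and the labels give no shared source. The block stayed an alternative. Any pair of arrays shared at most 0.351% of values.

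Members and lists were chosen with earlier results of these data known. Named were all members, Fzd4, the 2 genes of lowest p per list and the 2 most correlated with each member. Alternatives were 3 normalizations, a filter on dim probe sets, other variance models, array weights, the block, fewer probe sets, gene means, an adjusted p of 0.1 and arrays left out singly. Leaving out both arrays numbered 3 was added after seeing the data.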

Additional observations from a re-analysis of the deposited data

How the results depend on the processing

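The number of member probe sets, member genes and pathway genes past the threshold was 0 under each alternative run. The median over the member genes lay between -0.22 and 0.11 in all of them, and 361 of 387 single member values kept their direction, with no sign turned by quantile normalization, median centring or cyclic loess. Array weights gave -0.066 for Smad7 at 1423389_at and -0.26 for Tgfbr3 at 1425620_at, against 0.07 and 0.27; the cause was not tested. The remaining 24 reversals came from leaving out 1 array, where values ran from -0.12 to 0.36 for Ltbp1 at 1447547_at, from -0.23 to 0.038 and from -0.076 to 0.28 for Smad3 at 1450471_at and 1450472_s_at, from -0.25 to 0.35 for Smad7 at 1423389_at, from -0.19 to 1.16 for Tgfb1 at 1420653_at, from -0.53 to 0.17, -1.65 to 0.94 and -0.18 to 0.11 for Tgfbr1 at 1420893_a_at, 1420894_at and 1420895_at, from -0.84 to 0.085 for Tgfbr2 at 1422019_at, and from -0.95 to 1.29 and from -0.33 to 0.26 for Tgfbr3 at 1425620_at and 1433795_at. Smad1, of the pathway lists, ran from -0.079 to 0.47 at its brightest probe set in the same way. Fzd4 kept its direction but not its call with the replicate block (-6.94, adjusted p = 0.127), with an unmoderated statistic (-6.94, adjusted p = 0.498) and without both arrays numbered 3 (-6.96, adjusted p = 0.249), all in limma, and lay between -7.15 and -6.61 without any 1 array. Over all probe sets 5 passed, against 8 at an adjusted p of 0.1, 21 with array weights, 0 with the replicate block, with an unmoderated statistic or without both arrays numbered 3, and 0 to 2 without any 1 array. The replicate block changed no member call. Signal near background limits the dim probe sets, and 6 of the 25 lay below the median level.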
